A study of Mus musculus with 8 samples.

Results

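The 10 genes described here encode enzymes that remove superoxide and peroxides: the superoxide dismutases Sod1 and Sod2, the peroxiredoxins Prdx1 to Prdx6, and the glutathione peroxidases Gpx1 and Gpx4. They were taken by their symbols from a table of 25574 genes with an FPKM value (fragments per kilobase of gene, scaled to the mapped reads of the library) in each library, and all 10 symbols were found. Oocytes at nuclear envelope breakdown (NEBD) came from CD1 mice aged 8 weeks that had received 5 IU of pregnant mare serum gonadotropin 46 h earlier. The denuded, fully grown oocytes were held in 100 µM IBMX during isolation, released from it for 180 min and exposed to 0.1 mg/ml cycloheximide for 10 min. Lysates of 200 oocytes were separated on sucrose gradients into 10 fractions, of which fractions 2 to 5 gave 4 non-polysomal (NP) libraries and fractions 6 to 10 gave 4 polysomal (P) libraries. Both groups therefore share the strain, the hormone and the drugs, and the NP pool holds ribosomal subunits and monosomes as well as stored mRNPs. The comparison of P with NP sets the level of each transcript within the P libraries against its level within the NP libraries. FPKM is scaled within a library, so it does not give how a transcript was divided between the pools. The paper could not exclude that heavy stored particles sedimented with the polysomes.

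Superoxide dismutases turn superoxide into hydrogen peroxide, and peroxiredoxins and glutathione peroxidases reduce peroxides to water or alcohols. Peroxiredoxins do so through a reactive cysteine that is mostly restored by thioredoxin, whereas Gpx1 and Gpx4 carry a selenocysteine, inserted at a UGA codon, and draw on glutathione. In the fully grown oocyte transcription has ceased, so the enzymes made during meiotic maturation depend on transcripts laid down earlier.

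The bases around the codon of the catalytic residue show how closely the peroxiredoxins resemble each other there, and where the selenoprotein transcripts differ from ordinary ones. Each line gives 30 bases of coding sequence, 5′ to 3′ on the gene's strand, with that codon in capitals: a cysteine codon in the peroxiredoxins and the TGA of selenocysteine in the glutathione peroxidases. Positions are on GRCm38, the build of the files, from the GENCODE M21 transcripts. The runs of Prdx1 (chr4:116691811-116691840, plus strand, exon 3 of 6), Prdx2 (chr8:84970471-84970500, plus strand, exon 3 of 6), Prdx6 (chr1:161247353-161247382, minus strand, exon 2 of 5), Gpx1 (chr9:108339439-108339468, plus strand, exon 1 of 2) and Gpx4 (chr10:80054725-80054754, plus strand, exon 3 of 7) lie within 1 exon. Those of Prdx3 (chr19:60870112-60871421), Prdx4 (chrX:155332445-155334839) and Prdx5 (chr19:6907665-6908002), all on the minus strand, cross an exon junction, so their positions include an intron.
Prdx1: tttacttttgtgTGTcccacggagatcatt
Prdx2: ttcacttttgttTGCcccacggagatcatc
Prdx3: ttcacatttgtgTGTcctacagaaattgtt
Prdx4: ttcacctttgtgTGTccaactgaaatcatc
Prdx5: tttacacctggcTGTtctaagacccacctg
Prdx6: tttaccccagtgTGCaccacagaacttggc
Gpx1: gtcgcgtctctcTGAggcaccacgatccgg
Gpx4: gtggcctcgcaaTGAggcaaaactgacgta
The coding sequences of Prdx1 and Prdx2, the closest pair of the family, were 70.0% identical over 597 aligned bases, and their longest identical run was 14 bases. No pair of peroxiredoxins shared a run longer than 23 bases, the value for Prdx2 and Prdx4. The coding sequences of Gpx1 and Gpx4 were 49.0% identical, and those of Sod1 and Sod2 were 40.3% identical.

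Copies elsewhere in the genome were a closer source of shared reads than the relatives. A stretch of 777 bases at chr10:45875290-45876066 matched the Gpx4 transcript at 99.7% identity, and copies of at least 95% identity covered 81.0% of that transcript. For Sod1, 1 copy at chr6:67205514-67206126 had 97.2% identity and covered 95.5% of the transcript, and the table lists no gene at either place. Prdx1 had 2 copies covering 61.7% of its transcript, where the table lists AC239880.1 (mean FPKM 58.6 in NP and 89.7 in P) and Gm7204 (5.92 in NP and 13.7 in P). A copy of 834 bases on chromosome 1 matched Prdx2 at 96.4% identity, within Cntnap5b, whose mean FPKM was 0 in both groups. Sod2 had 574 such matches, covering 58.4% of a transcript with a 3′ UTR of 4963 bases. The longest, of 3251 bases at 98.5% identity, lies within Mllt4, whose mean FPKM of 17.1 in NP and 25.5 in P was above that of Sod2 (7.46 and 7.48). Prdx4 had 1 match, of 133 bases. Prdx3, Prdx5, Prdx6 and Gpx1 had no copy of at least 100 bases at 95% identity. The sources used here do not give how reads with several mapping places were treated, so the levels of Sod1, Sod2, Prdx1, Prdx2, Prdx4 and Gpx4 are uncertain to that extent. The row of the paralogue Prdx6b was listed at 0 in all 8 libraries. Prdx2 overlaps Rnaseh2a by 181 bp and Prdx5 overlaps Trmt112 by 409 bp, both on the opposite strand.

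FPKM values of a gene move in steps, from which the total by which a library was divided was estimated by a search. This total was 1299377 to 7594637 in NP and 2677946 to 4699328 in P. With annotated lengths, 58.0% to 63.6% of the values below 10 steps came out whole. By this estimate the values of the 10 genes rested on 2 steps (Sod2 in P replicate 2) to 67324 steps (Prdx2 in P replicate 4), and on 3 steps for Gpx1 in P replicate 3. The gene lengths of Sod2 and Gpx1 were themselves found by search. The cDNA was amplified and carried no molecular identifiers, so such steps are not independent molecules. All 10 oocyte marker genes, among them Zp3, Gdf9 and Mos, had values above 0 in at least 1 library and summed to 5922 to 12140 FPKM in NP and to 8417 to 29927 in P. Of the 10 cumulus and granulosa cell genes, 4 (Inhba, Foxl2, Has2 and Ptx3) were at 0 in all libraries, and the sum was 6.25 to 122 FPKM in NP and 0.19 to 62.6 in P, mostly from Cyp19a1 and Cyp11a1. The theca and stroma genes summed to at most 1.66 FPKM, and of 3 blood genes found only Cd68 was above 0, at up to 35.9 FPKM in NP and 0 in P. Their part in the results was not tested. FPKM is a share of what a library holds, so less of a transcript cannot be told apart from more of the others, and in such bulk samples fewer cells cannot be told apart from less RNA per cell.

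None of the 10 genes differed between P and NP at an adjusted p below 0.1 (limma on log2(FPKM + 1) without pairs, 2-sided, Benjamini-Hochberg over 14292 genes), against 3 genes, or 0.021%, of all those tested. At an unadjusted p below 0.05 there was 1 of the 10, Gpx4, against a background of 9.95%. In none of the 10 did the values of the 4 P libraries lie wholly above or below those of the 4 NP libraries, which held for 6.28% of all genes tested (0.357% with P above NP and 5.92% with NP above P). The log2 fold change of P over NP was above 0 for 5 of the 10 (Sod1, Prdx1, Prdx3, Prdx4 and Prdx6) and below 0 for the others, against 28.6% above 0 among all genes. Its median was −0.10 over the 10 genes and −0.39 over all genes tested, and 6 of the 10 lay above the latter. These directions depend on the scaling between libraries: with quantile normalization 6 of the 10 were above 0 and the median of all genes was −0.02, and with the same median FPKM per library 8 of the 10 were above 0 and it was 0.21. Of all genes at an unadjusted p below 0.05, 68 of 1422 were higher in P with the values as deposited, 364 of 942 with quantile normalization and 1006 of 1392 with the same median. All 10 genes were detected in all 8 libraries. Every P library held fewer genes above 0 (9139 to 11339) than every NP library (11703 to 13753). Genes at 0 in some libraries are among all genes tested, and their effect on the background shares was not tested. In each of the 10 genes the ratio of the highest to the lowest library was larger in P than in NP. For Sod1 these ratios were close, at 5.52 in P and 5.36 in NP. The share of all genes for which this holds was not counted, and the paper reports that its NP samples were less variable. It is therefore not given as a trait of these genes.

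**Figure D1:**
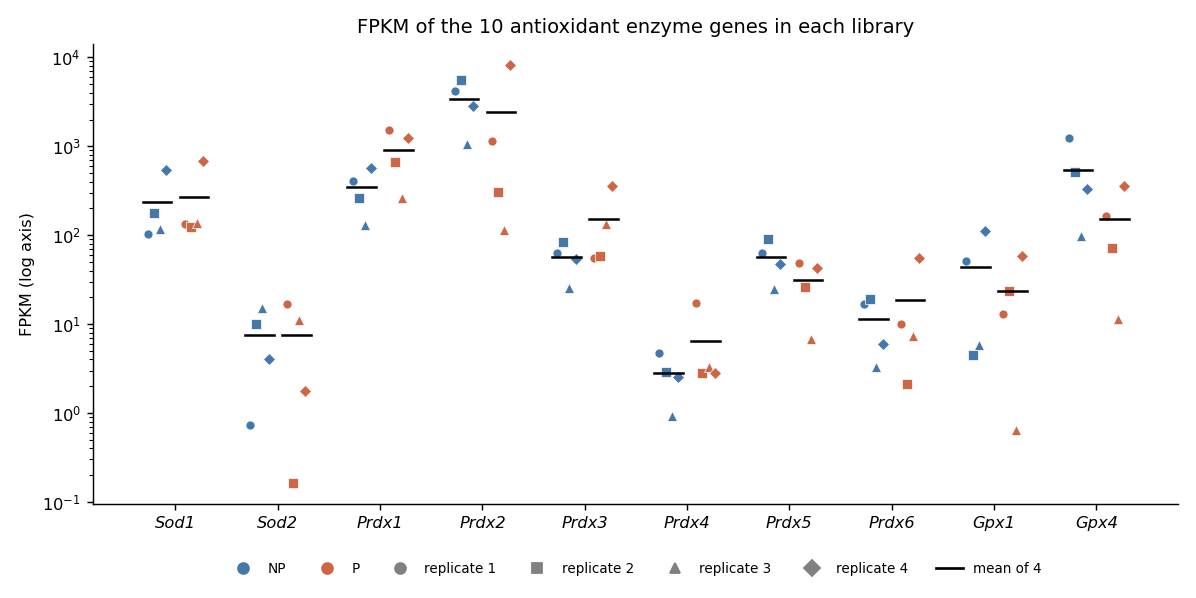
FPKM on a log axis for the 10 genes in each of the 4 NP libraries (blue) and 4 P libraries (orange); symbols mark the replicate number and black bars the mean of 4. NP and P values overlap for every gene, and the levels run from Sod2 in P replicate 2 (0.163) to Prdx2 in P replicate 4 (8243).

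Among the superoxide dismutases the cytosolic copper and zinc enzyme Sod1 (chromosome 16, 90220742 to 90226322) was the abundant one. Its FPKM was 102, 178, 118 and 546 in NP replicates 1 to 4 and 132, 123, 137 and 677 in P replicates 1 to 4. Replicate 4 was the highest in both groups, and the other 6 libraries lay between 102 and 178. The means were 236 ± 209 in NP and 267 ± 274 in P (SD, n = 4 each), and the log2 fold change was 0.09 (SE 0.71, 95% interval −1.44 to 1.62, limma adjusted p = 0.96). It was −0.50 without P replicate 4 and 1.42 (SE 0.90, adjusted p = 0.611) when each library was scaled to the same median FPKM, so its direction was not settled.

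The mitochondrial manganese enzyme Sod2 (chromosome 17, 13007839 to 13018119) was low and scattered. Its FPKM was 0.737, 10.1, 15.1 and 3.99 in NP replicates 1 to 4 and 16.9, 0.163, 11.1 and 1.76 in P replicates 1 to 4. The lowest and the highest value both fell in P, and the means were 7.46 ± 6.37 in NP and 7.48 ± 7.91 in P (SD, n = 4 each). In limma Sod2 had a log2 fold change of −0.29 (SE 1.09, 95% interval −2.62 to 2.04, limma adjusted p = 0.915). Sod1 made up 95.5% ± 5.01 of the summed FPKM of both genes in NP and 95.2% ± 5.54 in P (SD, n = 4 each).

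The cytosolic peroxiredoxins Prdx1 and Prdx2, typical 2-Cys enzymes, were the most abundant of their family. Prdx2 (chromosome 8, 84969587 to 84974834) had an FPKM of 4202, 5556, 1048 and 2808 in NP replicates 1 to 4 and of 1138, 306, 113 and 8243 in P replicates 1 to 4. P replicate 4 exceeded every NP library, P replicates 2 and 3 were below all of them, and P replicate 1 lay just above the lowest NP library. The means, 3404 ± 1930 in NP and 2450 ± 3887 in P (SD, n = 4 each), gave a P/NP ratio of 0.72, whereas the ratio of the geometric means of FPKM + 1 was 0.263. For Prdx2 the log2 fold change was −1.93 (SE 1.05, 95% interval −4.19 to 0.34, limma adjusted p = 0.541), and it was −3.08 without P replicate 4, −1.02 without P replicate 3, and −0.59 (SE 1.26, adjusted p = 0.849) with the same median FPKM per library.

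Prdx1 (chromosome 4, 116685544 to 116700822) leaned to the other side. Its FPKM was 409, 261, 130 and 577 in NP replicates 1 to 4 and 1516, 659, 261 and 1231 in P replicates 1 to 4. P replicates 1, 2 and 4 lay above all NP libraries, while P replicate 3 was within the NP range. The mean was 344 ± 192 in NP and 917 ± 564 in P (SD, n = 4 each), a ratio of 2.66. The log2 fold change of 1.33 (SE 0.67, 95% interval −0.12 to 2.77) did not pass the test (limma adjusted p = 0.527). Scaling each library to the same median FPKM raised it to 2.66, with an adjusted p of 0.419.

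Prdx3, the mitochondrial member (chromosome 19, 60864051 to 60874556, minus strand), had an FPKM of 62.5, 83.8, 25.2 and 54.6 in NP replicates 1 to 4 and of 55, 58.9, 133 and 358 in P replicates 1 to 4. P replicates 3 and 4 were above all NP libraries and P replicates 1 and 2 were within their range. The mean was 56.5 ± 24.3 in NP and 151 ± 142 in P (SD, n = 4 each), with a log2 fold change of 1.09 (SE 0.70, 95% interval −0.40 to 2.58, limma adjusted p = 0.598). Without P replicate 4 the log2 fold change was 0.53, and with the same median FPKM per library it was 2.41 (adjusted p = 0.428).

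Prdx4, the member of the endoplasmic reticulum (chromosome X, 155323918 to 155340754, minus strand), had the lowest mean FPKM of the 10 genes in both groups. Its FPKM was 4.76, 2.92, 0.913 and 2.56 in NP replicates 1 to 4 and 17.1, 2.81, 3.31 and 2.84 in P replicates 1 to 4. Only P replicate 1 was above all NP libraries, and the log2 fold change was 0.72 (SE 0.88, limma adjusted p = 0.74). It was 0.18 without P replicate 1 and 1.66 with the same median FPKM per library.

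Prdx5, an atypical 2-Cys enzyme of mitochondria, peroxisomes and cytosol (chromosome 19, 6906697 to 6910106, minus strand), was the 1 peroxiredoxin besides Prdx2 with a negative log2 fold change. Its FPKM was 63.7, 91.0, 24.7 and 47.2 in NP replicates 1 to 4 and 48.3, 26.4, 6.84 and 43.1 in P replicates 1 to 4. NP replicates 1 and 2 were above all P libraries and P replicate 3 was below all NP libraries. For Prdx5 the log2 fold change was −0.995 (SE 0.73, 95% interval −2.55 to 0.56, limma adjusted p = 0.642), and it became 0.29 when each library was scaled to the same median FPKM.

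Prdx6, the 1-Cys member, which also hydrolyses phospholipids (chromosome 1, 161240112 to 161251219, minus strand), had an FPKM of 16.6, 19.1, 3.26 and 6.03 in NP replicates 1 to 4 and of 9.97, 2.12, 7.29 and 55.6 in P replicates 1 to 4. P replicate 4 was above all NP libraries and P replicate 2 below all of them. Prdx6 had a log2 fold change of 0.15 (SE 0.96, limma adjusted p = 0.95), −0.63 without P replicate 4 and 1.32 with the same median FPKM per library.

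The glutathione peroxidase Gpx4, which reduces lipid hydroperoxides within membranes (chromosome 10, 80047166 to 80056439), had the largest log2 fold change of the 10 in size with the values as deposited, though that of Prdx2 was larger with quantile normalization, without NP replicate 1 or without P replicate 4, and that of Prdx1 with the same median FPKM per library or without P replicate 3. Its FPKM was 1230, 509, 98.5 and 334 in NP replicates 1 to 4 and 164, 71.5, 11.3 and 358 in P replicates 1 to 4. NP replicates 1 and 2 were above all P libraries, P replicates 2 and 3 were below all NP libraries, and the others overlapped. The mean was 543 ± 488 in NP and 151 ± 151 in P (SD, n = 4 each), so that the NP mean was 3.59 times the P mean. The log2 fold change was −2.16 (SE 0.97, 95% interval −4.25 to −0.07) with a limma p of 0.0439, which did not pass after adjustment (adjusted p = 0.493). The unadjusted p stayed below 0.05 when NP replicate 3, P replicate 1 or P replicate 4 was left out, and not when any of the other 5 libraries was. The log2 fold change ranged from −2.85 without P replicate 4 to −1.23 without P replicate 3, and it was −0.84 when each library was scaled to the same median FPKM.

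Gpx1, which reduces soluble hydrogen peroxide in the cytosol (chromosome 9, 108339080 to 108340338), was lower and more scattered. Its FPKM was 51.2, 4.44, 5.81 and 113 in NP replicates 1 to 4 and 13.1, 23.4, 0.648 and 57.8 in P replicates 1 to 4. NP replicate 4 was above all P libraries and P replicate 3 below all NP libraries. For Gpx1 the log2 fold change was −0.68 (SE 1.19, 95% interval −3.23 to 1.87, limma adjusted p = 0.808), and it was 0.33 without P replicate 3, 0.12 without NP replicate 4 and 0.45 with the same median FPKM per library. Gpx4 made up 91.1% ± 11.1 of the summed FPKM of both genes in NP and 87.2% ± 8.66 in P (SD, n = 4 each).

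**Figure D2:**
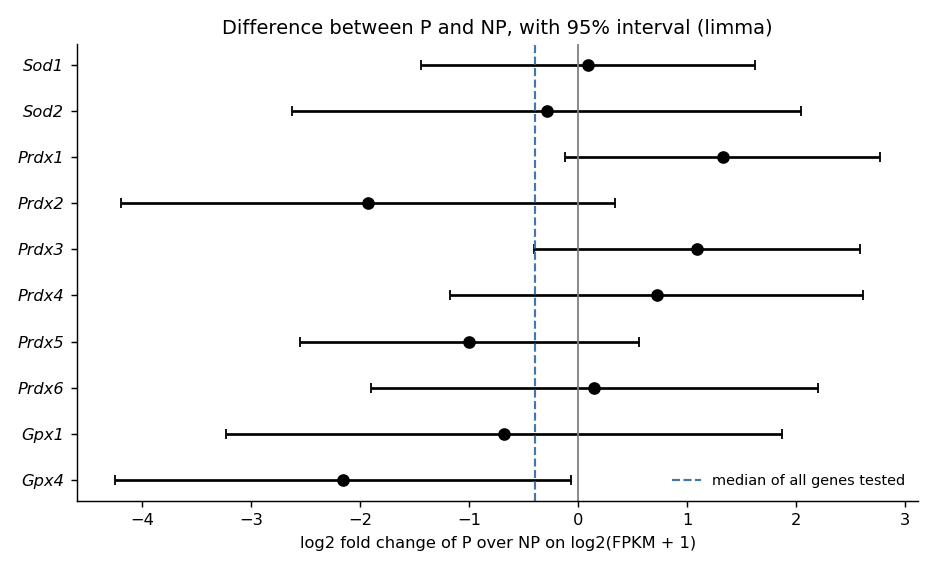
Log2 fold change of P over NP for the 10 genes, on log2(FPKM + 1), with the 95% interval from limma (4 libraries a group); the dashed line is the median of all genes tested (−0.39). The interval leaves out 0 for Gpx4 alone, at −4.25 to −0.07.

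An FPKM is divided by a gene length, inferred here as 2106 bases for Prdx4 and 3824 for Sod2. The transcripts used above have 990 and 5861 bases, so the order between genes depends on the length taken. On the FPKM scale the order of the mean levels in NP was Prdx2, Gpx4, Prdx1, Sod1, Prdx5, Prdx3, Gpx1, Prdx6, Sod2 and Prdx4. In P it was Prdx2, Prdx1, Sod1, Prdx3, Gpx4, Prdx5, Gpx1, Prdx6, Sod2 and Prdx4. Gpx4 thus stood between Prdx2 and Prdx1 in NP and next to Prdx3 in P, where the means of Prdx3 and Gpx4 were both 151 FPKM. The ranges of neighbours in the order overlapped, except for Sod1 and Prdx5 in NP, where the lowest Sod1 value (102) was above the highest Prdx5 value (91.0). Prdx2 was the highest of the peroxiredoxins in all 4 NP libraries but only in P replicate 4 among the P libraries, Prdx1 being higher in P replicates 1, 2 and 3.

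The share of a gene within its family does not depend on the scaling between libraries. Prdx2 made up 88.3%, 92.4%, 85.1% and 80.3% of the summed peroxiredoxin FPKM in NP replicates 1 to 4 and 40.9%, 29%, 21.6% and 83.0% in P replicates 1 to 4. P replicate 4 resembled the NP libraries, and the other 3 P libraries were below all of them. The mean share was 86.5% ± 5.1 in NP and 43.6% ± 27.4 in P (SD, n = 4 each). Prdx1 held 8.6%, 4.34%, 10.6% and 16.5% in NP and 54.5%, 62.5%, 49.7% and 12.4% in P, with means of 10.0% ± 5.05 and 44.8% ± 22.2 (SD, n = 4 each). Prdx3 held 1.58% ± 0.327 in NP and 9.13% ± 10.9 in P (SD, n = 4 each), the latter raised by 25.4% in P replicate 3. Prdx4, Prdx5 and Prdx6 each stayed at or below 2.5% in every library. The 2 largest shares differed by −42.9 percentage points for Prdx2 and 34.8 for Prdx1 (P minus NP), and by −56.0 and 45.6 points without P replicate 4. Over all libraries left out in turn, the differences ran from −56.0 to −35.6 points for Prdx2 and from 28.9 to 45.6 for Prdx1. All shares overlapped between the groups. The summed peroxiredoxin FPKM was 3875 ± 2040 in NP and 3574 ± 4348 in P (SD, n = 4 each). This sum was 9933 in P replicate 4 and 525 to 2784 in the other P libraries, against 1233 to 6014 in NP. The family's mean share of all FPKM was 0.679% ± 0.316 in NP and 0.595% ± 0.655 in P (SD, n = 4 each).

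**Figure D3:**
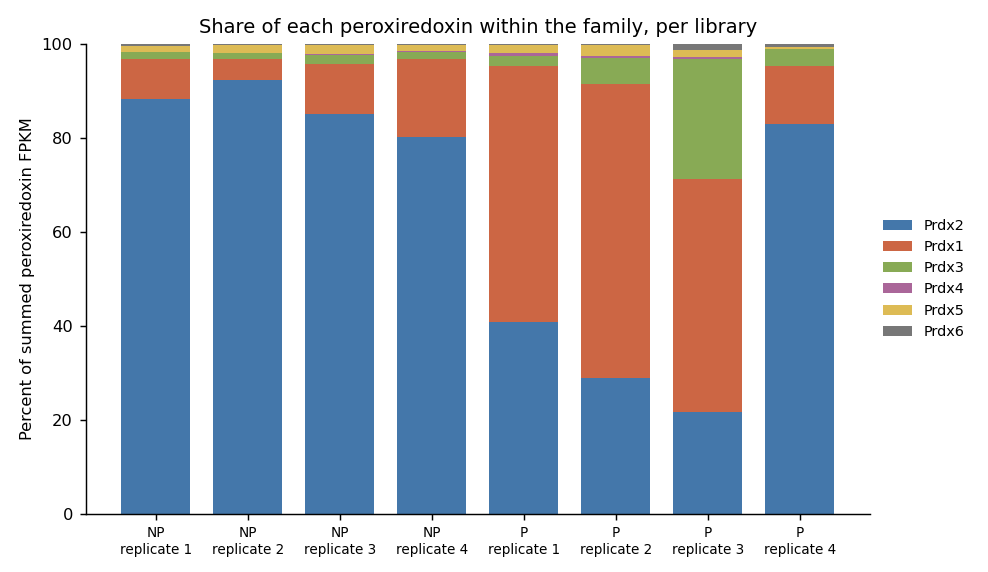
Share of each peroxiredoxin in the summed FPKM of the 6 peroxiredoxins, in percent, with 1 stacked bar for each library. Prdx2 fills 80.3% to 92.4% of the NP bars and 83.0% of the bar of P replicate 4, but 21.6% to 40.9% of the other P bars.

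Ratios between members within a library were also compared, a step chosen after the values had been seen and given without a test. Of the 45 pairs, 6 (13.3%) had a log2 ratio of FPKM + 1 that did not overlap between P and NP, against 4.84% of all pairs of genes tested and 4.69% of pairs of genes with a mean FPKM above 1. These pairs share genes and are not independent. Prdx1 over Gpx4 was 0.333, 0.513, 1.32 and 1.73 in NP replicates 1 to 4 and 9.17, 9.11, 21.3 and 3.44 in P replicates 1 to 4. Prdx1 was below Gpx4 in 2 of the 4 NP libraries and above it in all 4 P libraries.

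Prdx1 over Prdx5 was 2.84 to 12 in NP and 24.1 to 33.4 in P. Prdx3 over Gpx4 was 0.0516 to 0.263 in NP and 0.339 to 10.9 in P. Prdx2 over Prdx3 was 40.1 to 66.2 in NP and 0.852 to 23.0 in P, and Prdx2 over Prdx6 was 238 to 400 in NP and 13.8 to 146 in P. Prdx6 over Gpx4 was 0.0143 to 0.0428 in NP and 0.0431 to 0.675 in P, and it overlapped without the added 1, which left 5 pairs of 45. Prdx1 over Prdx2 was not among them, being 0.0471 to 0.206 in NP, 1.33, 2.15 and 2.29 in P replicates 1 to 3 and 0.149 in P replicate 4.

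**Figure D4:**
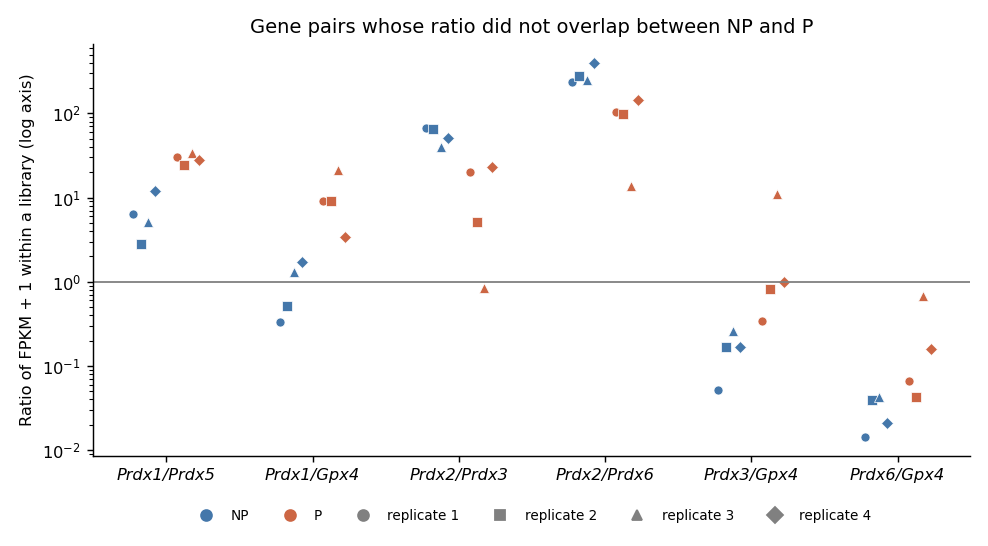
Ratio of FPKM + 1 of 1 gene over another within each library, on a log axis, for the 6 pairs that did not overlap between the 4 NP libraries (blue) and the 4 P libraries (orange); symbols mark the replicate number and the line marks a ratio of 1. For Prdx1 over Gpx4 the P libraries lie at 3.44 to 21.3 and the NP libraries at 0.333 to 1.73.

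The enzymes depend on partners that reduce them, supply glutathione or insert selenocysteine, and 48 such genes were listed by role. The table held 47 of them, 37 passed the filter on low values, and none had an adjusted p below 0.1 in limma, against the 0.021% above. At an unadjusted p below 0.05 there were 4, all higher in NP (9.47% of all genes tested) and none higher in P (0.476%). With quantile normalization 1 of the 37 remained, Glrx3. With the same median FPKM per library there were 3 others, Txnip, Selenot and Msrb1, all higher in P. The share of all genes at that level, in either direction, was 6.59% with quantile normalization and 9.74% with the same median. The median log2 fold change of the 37 was −0.60, below the −0.39 of all genes, and 0.19 with the same median FPKM per library, against 0.21. Catalase (Cat), the extracellular Sod3, the peroxidases Gpx2, Gpx5, Gpx7 and Gpx8, and sulfiredoxin (Srxn1), which restores overoxidised peroxiredoxins, were listed at 0 in all 8 libraries.

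Thioredoxin (Txn1), the cytosolic reductant of the peroxiredoxins, had an FPKM of 76.9, 25.6, 11.5 and 72.3 in NP replicates 1 to 4 and of 15.4, 36.5, 2.14 and 0.355 in P replicates 1 to 4. The groups overlapped through P replicates 1 and 2, and the log2 fold change was −2.38 (SE 1.04, limma adjusted p = 0.483). The mitochondrial Txn2 averaged 45.7 FPKM in NP and 15.2 in P. The most abundant gene of this list was Txnip, an inhibitor of thioredoxin, with 434 ± 121 in NP and 587 ± 399 in P (SD, n = 4 each) and a log2 fold change of 0.26 (limma adjusted p = 0.85).

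Glutaredoxin 3 (Glrx3), which takes part in iron handling, was the 1 listed gene whose groups did not overlap, which held for 5.92% of all genes tested in that direction. Its FPKM was 73.2, 76.9, 58.8 and 53.3 in NP replicates 1 to 4 and 16.9, 10.2, 16.4 and 43.9 in P replicates 1 to 4, with a log2 fold change of −1.73 (SE 0.62, limma adjusted p = 0.416). Gclc, the catalytic subunit of the enzyme that starts glutathione synthesis, averaged 30.5 ± 17.7 in NP and 13.7 ± 24.1 in P (SD, n = 4 each), with a log2 fold change of −2.62 (limma adjusted p = 0.47) and P replicate 3, at 49.7, within the NP range. The abundant mitochondrial Glrx5 averaged 371 in NP and 388 in P, and Glrx averaged 218 in NP and 118 in P. The P mean of Glrx5 was raised by 1070 in P replicate 4, and its log2 fold change was −0.407.

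Of the genes of selenocysteine incorporation, Sephs2, which makes the selenium donor, had 57.9, 47.6, 54.0 and 442 FPKM in NP replicates 1 to 4 and 18, 10.6, 34.1 and 65.1 in P replicates 1 to 4, with a log2 fold change of −1.77 (SE 0.81, limma adjusted p = 0.495). Only P replicate 4 reached into the NP range. The elongation factor Eefsec averaged 82.6 ± 70.4 in NP and 25.5 ± 26.4 in P (SD, n = 4 each), and the SECIS-binding Secisbp2 averaged 18.5 and 19.4. Among the other selenoproteins, whose median log2 fold change was 0.17, Selenow (listed as Sepw1) averaged 166 ± 109 in NP and 221 ± 360 in P, Selenoh (2700094K13Rik) 14.1 ± 13.2 and 122 ± 234, and Msrb1 (Sepx1) 24.6 ± 31.0 and 101 ± 162 (SD, n = 4 each). A single P library carried each of the last 3 P means, at 761 and 474 in P replicate 4 and at 344 in P replicate 3.

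Ccs, the copper chaperone of Sod1, averaged 1.83 ± 2.03 in NP and 6.68 ± 11.8 in P (SD, n = 4 each), with 24.4 in P replicate 4. Of the other glutathione peroxidases only Gpx3 (3.17 in NP, 3.15 in P) and Gpx6 (3.46 in NP, 9.73 in P) passed the filter. Each of these P means was carried by a single library, at 12.4 in P replicate 4 for Gpx3 and 35.7 in P replicate 1 for Gpx6. Among the regulators of the antioxidant response the highest mean levels were those of Bach1 (67.1 in NP, 33.2 in P), a repressor of antioxidant genes, Park7 (16.0 in NP, 40.6 in P) and Mafg (3.74 in NP, 13.2 in P). The P mean of Park7 was carried by 153 in P replicate 4, and its log2 fold change was −0.6. Mafg had 27.2 and 23.8 in P replicates 2 and 4 but 0.948 and 1.04 in P replicates 1 and 3.

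**Figure D5:**
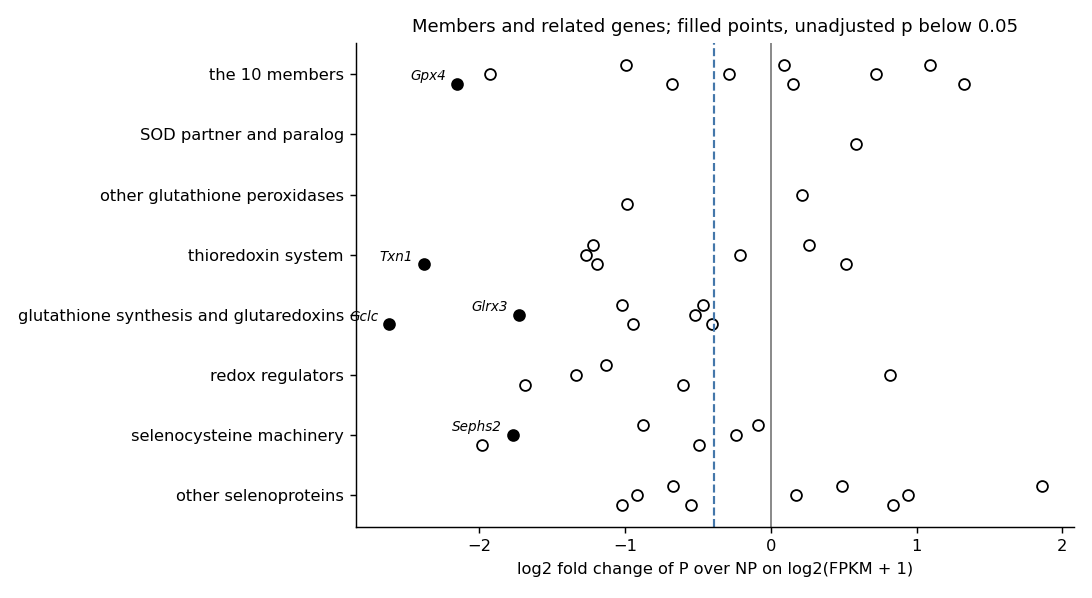
Log2 fold change of P over NP on log2(FPKM + 1) for the 10 genes (top) and the 37 related genes that were tested, by role; each point is a gene, filled where the unadjusted limma p is below 0.05, and the dashed line is the median of all genes tested (−0.39). The 5 filled points, Gpx4, Txn1, Gclc, Glrx3 and Sephs2, all lie on the NP side, and none passes after adjustment; with the same median FPKM per library none of these has an unadjusted p below 0.05.

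For 1 gene of each family the genes with the most similar pattern were looked up by Pearson's r of log2(FPKM + 1) over the 8 libraries, among 2003 genes with a mean FPKM above 50. These are descriptions over libraries that share the 2 pools. Sod1 was closest to Edc4 (r = 0.959), Gm15774 (0.959) and Spc24 (0.942), all highest in replicate 4 of both groups. Prdx1 was closest to Gm813 (0.961), Nup85 (0.951) and Gm20509 (0.95). Gpx4 was closest to Elof1 (0.96), Slc25a1 (0.953) and Daglb (0.948).

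Cytoplasmic polyadenylation elements are 3′ UTR motifs through which stored oocyte transcripts are held back and later activated. The letters TTTTAT or TTTTAAT, searched on the transcript strand in the last 100 bases of the 3′ UTR, were found in 0 of the 10 genes and in 18.9% of 11569 genes tested that had a 3′ UTR annotated. This says only that these letters are not in that window of the transcript used. For Sod1 and Prdx4 the window was shorter, being the whole 3′ UTR of 72 and 60 bases.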

How the data were processed

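Per the labels and the study's methods, the authors depleted ribosomal RNA, reverse transcribed with random and oligo(dT) primers, amplified the cDNA and sequenced it. Trimming used Trim Galore 0.4.1, alignment used HISAT2 2.0.5 on GRCm38, and Seqmonk 1.40.0 gave the gene values. The deposited values are FPKM on a linear scale, 1 per gene and library, used as given. The authors' tables of expressed genes and of DESeq2 results hold means, ratios, fold changes and p-values and were not used. Groups came from the library titles. Log2(FPKM + 1) was fitted with limma 3.58.1 (R 4.3.3; lmFit, eBayes with trend, 2-sided, Benjamini-Hochberg, threshold 0.1) for the 14292 genes whose mean FPKM exceeded 0.1 in either group, after a test on simulated data. Alternatives were other scalings, a pseudocount of 0.1, other filters, a replicate block and leaving out each library. Steps were recovered with annotated exon lengths for 5 of the 10 genes and searched lengths for the other 5. Identity used mafft 7.526 and copies blastn 2.17.0 (at least 95% over 100 bases). Related genes named are the 3 most abundant of each list and those with an unadjusted p below 0.05. The 10 genes and the lists were chosen with earlier results of these data known. The study describes the gradients as independent biological replicates, and each gradient gave both pools. The main fit treated the 8 libraries as independent. Its p-values therefore measure the spread between libraries within a group, not that of the P to NP difference between gradients.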

Additional observations from a re-analysis of the deposited data

Results flagged for a closer look

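The value of a single library stood apart from the other 3 of its group in 5 cases, where its gap to the nearest library exceeded Dixon's critical value for 4 libraries as a part of the group's range. In 2 cases this held both on FPKM and on log2(FPKM + 1). Sod1 in P replicate 4 had an FPKM of 677 against 123 to 137 in the other P libraries, with a gap of 0.974 of the range on FPKM and 0.935 on log2(FPKM + 1). Prdx4 in P replicate 1 had an FPKM of 17.1 against 2.81 to 3.31 in the others, with a gap of 0.965 on FPKM and 0.921 on log2(FPKM + 1).

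In 3 cases it held on FPKM but not on log2(FPKM + 1), the scale of the tests. Prdx2 in P replicate 4 had an FPKM of 8243 (gaps of 0.874 and 0.463), Prdx6 in P replicate 4 had 55.6 (0.853 and 0.567), and Sod1 in NP replicate 4 had 546 (0.83 and 0.67). Of the 5 cases, 3 were in P replicate 4. Chance alone flags about 1 in 20 groups on a scale if the values are normally distributed, and 20 groups of 4 libraries were examined. That distribution was not tested on either scale, so the number of cases is not read against this rate.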

How the results depend on the processing

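No member and no related gene reached an adjusted p below 0.1 in any of the 14 alternatives. Over all genes tested, 3 did so as reported, none with quantile normalization, the same median per library or no filter, 5 with a pseudocount of 0.1 or a filter at 1, 1 with the replicate block, and 0 to 5 when a library was left out. The number of members at an unadjusted limma p below 0.05 was 3 with quantile normalization (Prdx1, Prdx2 and Gpx4), against 6.59% of all genes. It was 2 with the same median FPKM per library (Prdx1 and Prdx3), against 9.74%, and 0 without a filter on low values, against 9.69%. When a library was left out it was 0 to 2, against 7.76% to 11.3% of all genes. It was 0 without NP replicate 1, NP replicate 2 or P replicate 2. It was 1 (Prdx1 in place of Gpx4) without NP replicate 4 or P replicate 3, and 2 (Prdx2 and Gpx4) without P replicate 4. The number of members whose groups did not overlap became 1 with quantile normalization (Prdx4) and 2 with the same median (Prdx3 and Prdx4). It was 0 to 1 when a library was left out (Prdx1 without P replicate 3). The share of all genes whose groups did not overlap was not counted in these settings, so these counts are not given as a trait of the members. Prdx1, Prdx2, Prdx3, Prdx4 and Gpx4 kept their direction in all 14 alternatives. With the same median per library the log2 fold change of Sod2 was 0.67, of Prdx5 0.29 and of Gpx1 0.45, and with quantile normalization that of Sod2 was 0.41. Left-out libraries gave −0.50 to 0.61 for Sod1, −0.90 to 0.43 for Sod2, −0.63 to 0.77 for Prdx6 and −1.39 to 0.33 for Gpx1. The cause was not tested. The median of all genes moved from −0.39 to −0.02 with quantile normalization and to 0.21 with the same median, so directions are relative to it.

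Same-numbered NP and P libraries had deviations from the group means correlating at 0.139, 0.0518, 0.251 and 0.155 over 11374 genes, against −0.135 to 0.136 for other numbers, and every library except NP replicate 2 correlated best with its own number. The study pooled the NP and the P fractions from the same gradients, so each NP library should have a P partner. Since 1 correlation was near 0 and the labels do not tie a number to 1 gradient, the comparisons were made without pairs. Their p-values therefore leave that pairing out. With the replicate block, 3 members had an unadjusted limma p below 0.05 (Prdx1, Prdx2 and Gpx4) and none an adjusted p below 0.1, the lowest being 0.286. Over all genes tested, 12.1% had an unadjusted p below 0.05 with the block, against 9.95% without it. The block lowered the SE from 0.97 to 0.60 for Gpx4, from 0.67 to 0.45 for Prdx1 and from 1.05 to 0.74 for Prdx2. For Sod2 it moved only from 1.09 to 1.07.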
